A study of Homo sapiens with 6 samples.

Results

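The locus of CDKN1A and DINO was defined as chromosome 6 from 36640000 to 36660000 in hg19, and all deposited peaks in this 20 kb window were taken. It held 15 peaks of the 314065 in the 4 lists. These were 4 of 105683 peaks of the even probe set without RNase, 4 of 34712 of the odd set without RNase, 5 of 116185 of the even set with RNase and 2 of 57485 of the odd set with RNase. All libraries came from U2OS cells, an osteosarcoma line that keeps functional, wild-type p53. The cells had been given doxorubicin, which breaks DNA, at 0.2 µg/mL over 24 h before glutaraldehyde crosslinking and fragmentation of the chromatin. In ChIRP, tiled biotinylated oligonucleotides pull an RNA out of crosslinked chromatin, and the DNA that comes with it is sequenced. The probes against DINO were split into an even and an odd set so that each can serve as a check of the other, and RNase-treated chromatin was the control for recovery that does not depend on RNA. All groups received the drug, so none shows the locus without DNA damage. Each condition was 1 library, so the peaks are described without a test, and read numbers are unknown. The 2 input samples were not analysed here.

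CDKN1A encodes p21, an inhibitor of cyclin-dependent kinases that stops the cell cycle, and it is among the best-known targets of p53. When DNA is damaged, p53 is stabilised and binds response elements upstream of the gene. DINO is a long noncoding RNA induced from the same stretch, and it is known for binding p53 and amplifying its signalling. The main CDKN1A start used here is 36646459 on the plus strand, and all distances are counted from it. The distal p53 response elements were placed from general knowledge, at about 2.3 and 1.4 kb upstream (36644159 and 36645059). These distances are rounded, so each position is uncertain by about 50 bp.

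DINO starts close to CDKN1A and runs away from it on the opposite strand. In the RefSeq promoter sequences of GRCh38.p14, where both genes were found, the 300 base windows around the starts of CDKN1A and DINOL (the symbol of DINO) share 254 bases. By that overlap DINO begins 155 bp upstream of the CDKN1A start. With its listed length of 951 bp laid out as an unbroken stretch, it reaches to 1105 bp upstream. Whether DINO is unbroken in the genome was not checked. The RefSeq start of CDKN1A in that build may differ from the hg19 start by some bases, so no hg19 position is given for DINO. The 250 bases before the CDKN1A start are shown because the strongest peak of the locus ends in them, with capitals marking the 96 bases that are also the beginning of DINO, read on the other strand. The first 50 bases of DINO follow in its own direction.
CDKN1A upstream: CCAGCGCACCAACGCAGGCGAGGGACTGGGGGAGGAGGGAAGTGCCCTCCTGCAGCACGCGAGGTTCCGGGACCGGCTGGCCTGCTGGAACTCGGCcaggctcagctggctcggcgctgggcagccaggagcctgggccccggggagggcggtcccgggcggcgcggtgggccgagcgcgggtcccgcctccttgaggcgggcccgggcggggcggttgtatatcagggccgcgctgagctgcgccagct
DINO first bases: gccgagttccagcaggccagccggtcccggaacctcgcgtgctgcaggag

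Neither 300 base window held a p53 consensus decamer with its core intact and at most 1 mismatch, searched on both strands, against 32.6% of 35116 RefSeq promoters. A looser search took pairs of decamers with intact cores, 0 to 13 bp apart, with at most 3 mismatches over the pair. It also found none in either window, against 4.49% of promoters. The distal elements lie outside these windows, and their sequence is not shown here.

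Each list had a single dominant peak at the locus, and it lay over DINO. Its fold enrichment, the authors' linear ratio over the modelled background at the summit, came to 121 for even and 186 for odd probes without RNase. With RNase the even probes gave 191 and the odd probes 300.1. Folds were made within each list and are not compared between lists. By fold this peak ranked 20 of 105669 peaks on chromosomes 1 to 22 and X in the untreated even list and 1 of 34695 in the untreated odd list. It ranked 69 of 116171 and 5 of 57466 in the RNase-treated even and odd lists. The next strongest peak at the locus reached 27.4% of the dominant fold in the untreated even list, and none reached more than 6.75% in the other lists.

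The summits of the dominant peak fell within a short stretch in the body of DINO. They lay 803 bp (untreated even), 810 bp (untreated odd), 829 bp (RNase-treated even) and 847 bp (RNase-treated odd) upstream of the CDKN1A start. With and without RNase they differed by 26 bp in the even set and 37 bp in the odd set. In each list the interval covered all 951 bp of DINO as placed above. Probes complementary to DINO can also anneal to the DNA of its gene, whose part in the peak was not tested.

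**Figure D1:**
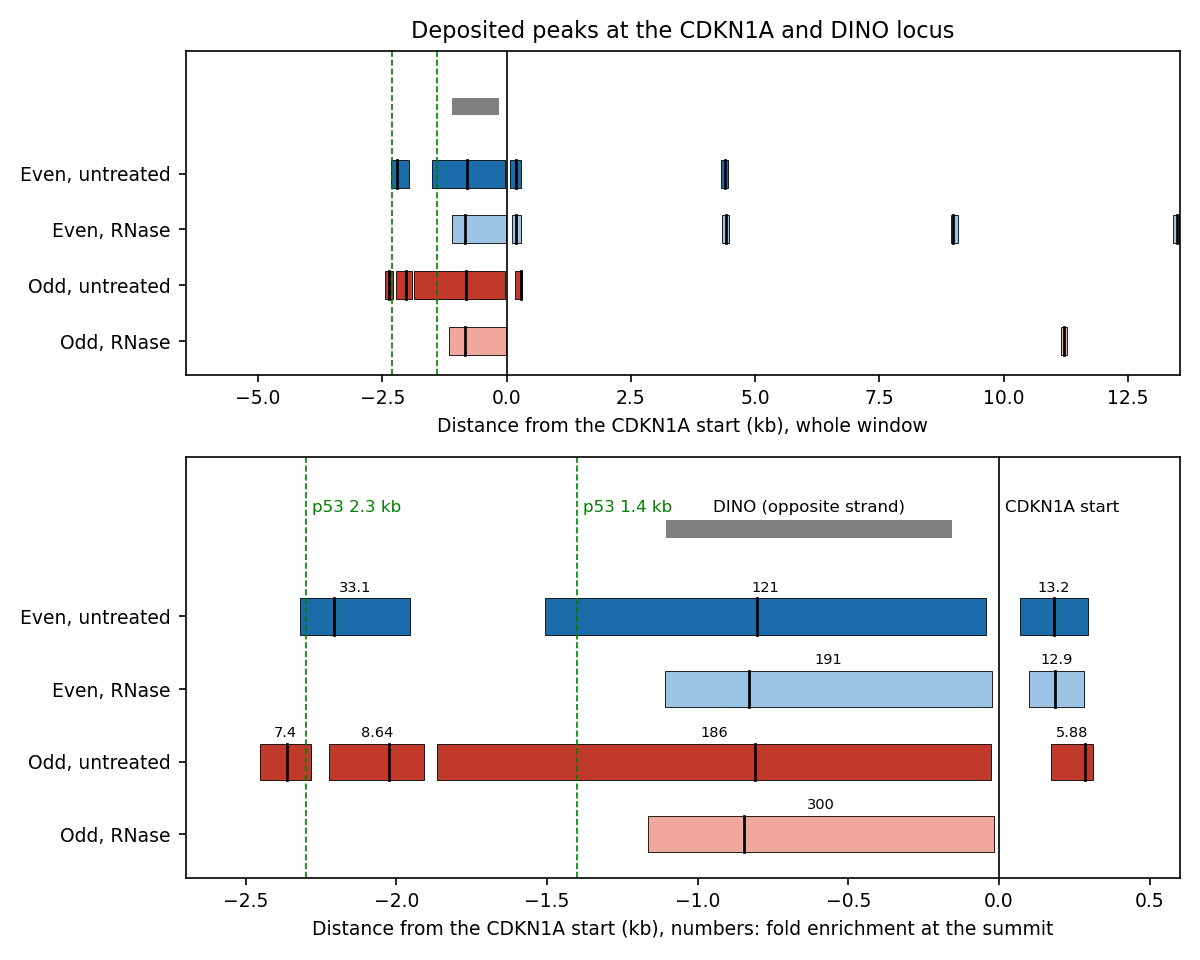
Deposited peak intervals of the 4 lists (bars) with their summits (black ticks) by distance from the CDKN1A start in kb, over the whole window (top) and around the start (bottom, with fold enrichment above each bar). The grey bar is DINO as placed from RefSeq, and dashed lines mark the nominal p53 positions. Both untreated lists cover these positions and neither RNase-treated list does. The 2.3 kb position lies 21 bp (even) and 15 bp (odd) inside an untreated interval edge, less than its uncertainty of about 50 bp.

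On the CDKN1A side the dominant peak ended at nearly the same place in all lists, just short of the CDKN1A start. The end lay 44 bp upstream of the start in the untreated even list, 26 bp in the untreated odd list, 23 bp in the RNase-treated even list and 19 bp in the RNase-treated odd list. On the other side the RNase states parted. After RNase the interval stopped 1109 bp (even) and 1164 bp (odd) upstream of the CDKN1A start. The far end of DINO, as placed above, was next to these at 1105 bp. Without RNase the interval went on to 1508 bp (even) and 1864 bp (odd). The untreated interval therefore reached 399 bp further in the even set and 700 bp further in the odd set, while the other ends differed by 21 and 7 bp.

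Such a one-sided extension was seldom seen elsewhere. Of 84601 untreated even peaks that paired with exactly 1 RNase-treated even peak, 9 (0.0106%), the locus included, had an end at least 399 bp further out, and in 6 of them the other end was within 21 bp. Of 31623 such odd peaks, 1 (0.00316%) had an end at least 700 bp further out, and that was the locus itself. An interval must be wider than these distances to reach so far. Among pairs with an untreated interval of at least 1000 bp, 5 of 215 even and 1 of 8 odd had an end as far out. The other end was also within 21 bp in 3 of these even pairs, and within 7 bp in the 1 odd pair. Over all pairs the untreated interval was slightly narrower than its RNase-treated partner, with a median width difference of -21 bp (even) and -41 bp (odd). At the locus it was 378 bp and 693 bp wider. The locus set the distance counted here, so these numbers describe its place and test nothing.

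**Figure D2:**
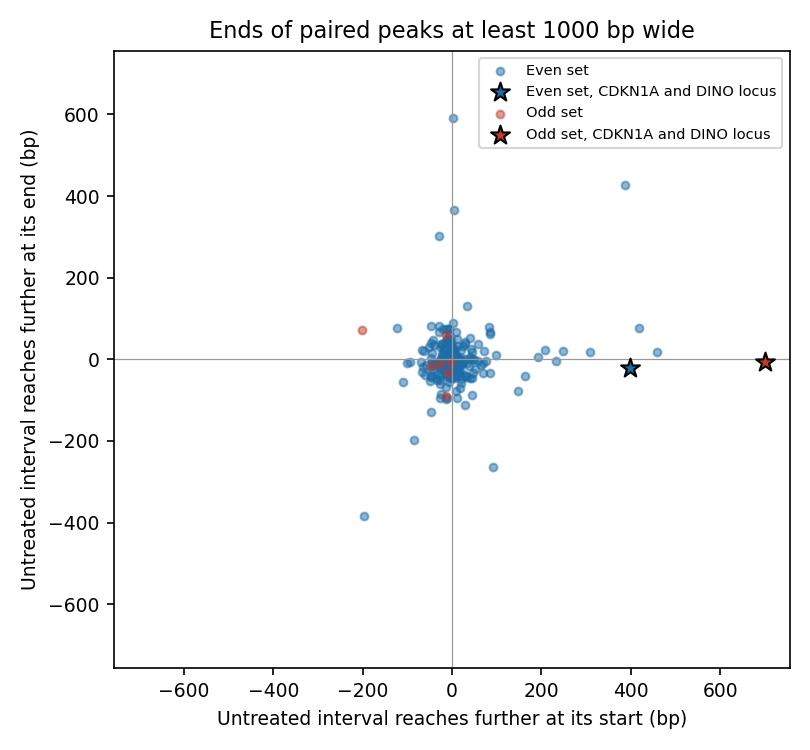
Difference in reach between untreated and RNase-treated intervals at their start (x axis, bp) and end (y axis, bp), for 215 even and 8 odd pairs with an untreated interval of at least 1000 bp. The stars are the locus, at 399 bp (even) and 700 bp (odd) on the start side and close to 0 at the end, where -21 and -7 bp were measured.

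Beyond the dominant peak, both untreated lists held further peaks towards 2.3 kb upstream. The even list had 1 such peak, from 2321 to 1957 bp upstream (36644138 to 36644502), with a fold of 33.1 and its summit 2208 bp upstream. The odd list had 2, from 2454 to 2285 bp (36644005 to 36644174, fold 7.40) and from 2224 to 1908 bp (36644235 to 36644551, fold 8.64). Each of the odd peaks overlapped the even peak, and 305 of its 365 bases were shared with them. In the odd list the 3 upstream intervals were almost joined, with gaps of 60 and 43 bp, whereas in the even list a gap of 448 bp separated the flank from the dominant peak.

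No peak of either RNase-treated list lay in this flank, and within the window none began further than 1164 bp upstream of the CDKN1A start. In the RNase-treated list of its own set, the nearest peak was 848 bp from the even flank, and 1121 and 744 bp from the 2 odd flank peaks. In the whole window, 1 of 4 untreated even peaks had no RNase-treated counterpart of its set, against 19.1% of all untreated even peaks. In the odd set it was 3 of 4, against 8.41%. With 4 peaks a list, these shares carry little precision.

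The place of the flank peaks was then examined, first among all peaks of their own lists. By fold the even flank ranked 10910 of 105669, so 10.3% of that list was as high. The odd flank peaks, of fold 7.40 and 8.64, ranked 23834 and 20676 of 34695. That is 68.7% and 59.6% as high, so most peaks of the untreated odd list had at least their fold. Peaks without a counterpart were weaker as a group. Among the 20207 untreated even peaks without an RNase-treated counterpart, which had a median fold of 7.14, only 28 (0.139%) had a fold as high as the 33.1 of the flank, itself included. The flank was also wide, at 365 bp against a median of 137 bp. In the odd set, of 2918 peaks without a counterpart (median fold 6.06), 8.43% had a fold of at least 8.64 and 17.7% a fold of at least 7.40. Their widths were 317 and 170 bp, against a median of 122 bp.

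**Figure D3:**
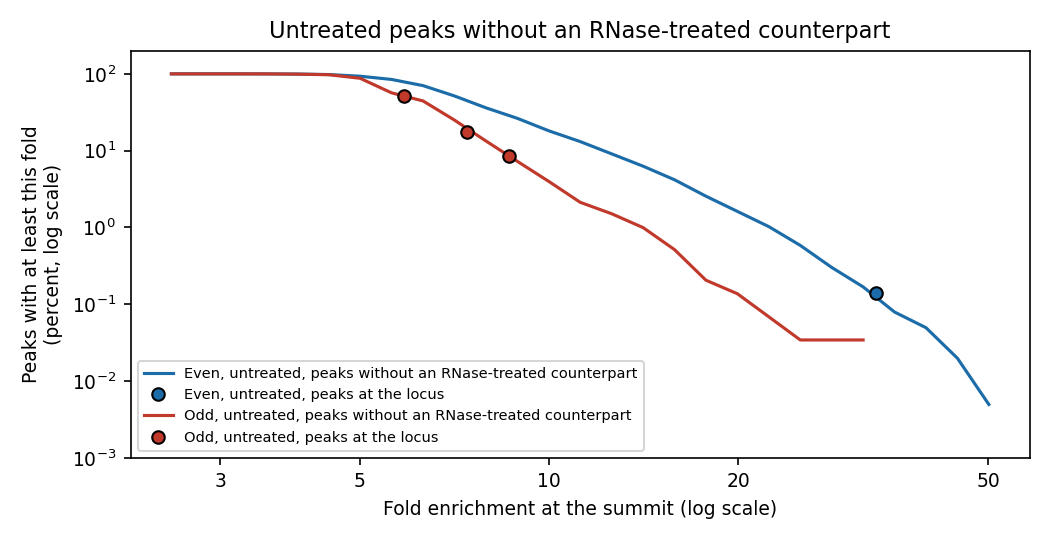
Percent of untreated peaks without an RNase-treated counterpart (y axis, log scale) that have at least a given fold enrichment (x axis, log scale), for the even and odd sets. Circles are the peaks at the locus: the even flank at 33.1 lies near the strong end of its curve, and the odd peaks at 5.88, 7.40 and 8.64 lie in the upper left part of theirs.

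The nominal positions of the p53 response elements both lay in the part covered in the untreated lists and not in the RNase-treated lists. With 1 library each, RNase and differences in depth between libraries cannot be told apart. The position 1.4 kb upstream was inside the dominant peak of both untreated lists, 108 bp from its start in the even list and 464 bp in the odd list. All 101 bases within 50 bp of it were covered in both. After RNase it was outside, 291 bp from the even interval and 236 bp from the odd interval, and 0 of the 101 bases were covered in either list. The summits of the dominant peak lay in the body of DINO, and without RNase they were 597 bp (even) and 590 bp (odd) away from this position.

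The position 2.3 kb upstream was covered by the flank peaks without RNase, but near their edges. It lay 21 bp inside the even peak and 15 bp inside the first odd peak, with 72 and 66 of the 101 bases around it covered. The odd peak there had a −log10 q-value of 8.39, so at a threshold of 10 the untreated odd list no longer covered this position. The nearest summits were 92 bp away in the even list and 62 bp away in the odd list. With RNase the nearest intervals were 1191 bp (even) and 1136 bp (odd) away, and none of the 101 bases was covered. Since the nominal position is rounded and lies close to an edge in both untreated lists, either list may or may not cover the element itself. The data place the intervals and do not show binding of p53, which was not measured here.

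Measured in bases, 662 bp at the locus were in both untreated lists and in neither RNase-treated list. Of these, 649 bp lay upstream of the CDKN1A start, 344 bp in the extension of the dominant peak and 305 bp in the flank, and 13 bp lay downstream. With peaks of a fold of at least 10 only, the value was 344 bp, and the flank no longer counted. The reverse, bases in both RNase-treated lists and in neither untreated list, came to 3 bp. A stretch of 1066 bp, from 1109 to 44 bp upstream, was in all 4 lists.

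Over chromosomes 1 to 22 and X, 3477 bp (0.000115% of all bases up to the last peaks) were in both untreated lists only, and 19.0% of them were at this locus. The reverse pattern was more frequent over the genome, with 24213 bp (0.000798%). Of 151696 windows of 20 kb, 104 (0.0686%) had any base of both untreated lists only, with a median of 13.5 bp among them. The locus ranked 1, and the next window had 158 bp. Only bases covered in both untreated lists can count here. This window also had the most covered bases of all windows in the untreated odd list, 2465 bp. The median there was 191 bp among windows with any covered base. The rank is thus a description and tests nothing. For both RNase-treated lists only, 735 windows (0.485%) had such bases, at most 152 bp in a window, and the locus ranked 676.

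**Figure D4:**
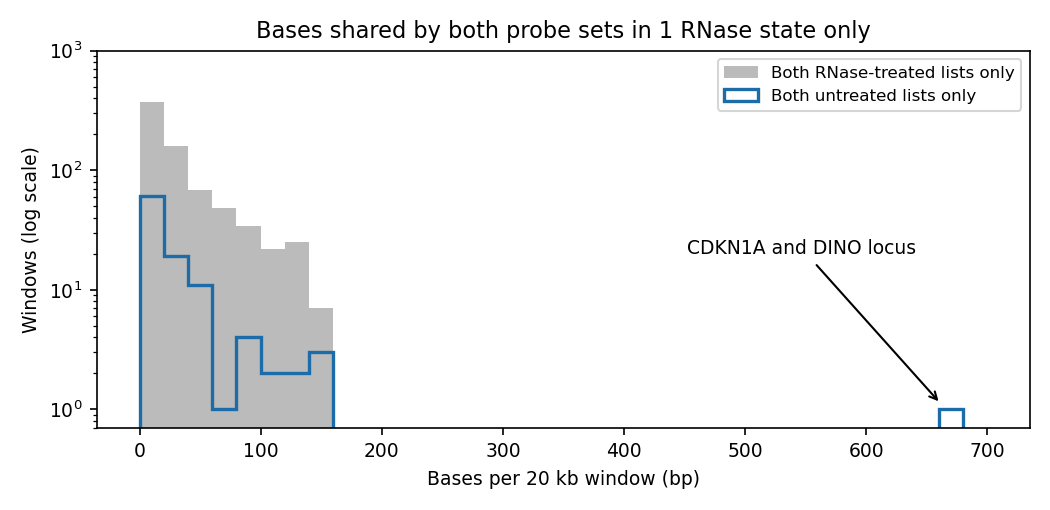
Number of 20 kb windows (y axis, log scale) by bases covered in both probe sets in 1 RNase state only (x axis, bp); windows with 0 such bases are left out. The CDKN1A and DINO locus stands at 662 bp for the untreated lists, and all other windows are at or below 158 bp.

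The total length covered at the locus was longer without RNase in both probe sets. Peaks covered 2209 bp of the window in the untreated even list, 2465 bp in the untreated odd list, and 1670 bp (even) and 1274 bp (odd) after RNase. Over all chromosomes the lists covered 0.792%, 0.246%, 0.909% and 0.415% of the bases in this order. Among all windows the locus ranked 55, 1, 248 and 47, and in the untreated odd list the next window had 2452 bp, nearly the same. The RNase states differed most in the stretch upstream of DINO, which held 768 bp (even) and 1246 bp (odd) without RNase, against 4 and 59 bp with RNase. DINO as placed above was covered in full in each list, and the 154 bp between the starts were covered by 111 to 136 bp. Downstream of the CDKN1A start the even set went the other way, with 379 bp without RNase and 583 bp with RNase. The odd set had 139 bp without RNase and 128 bp with RNase there.

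**Figure D5:**
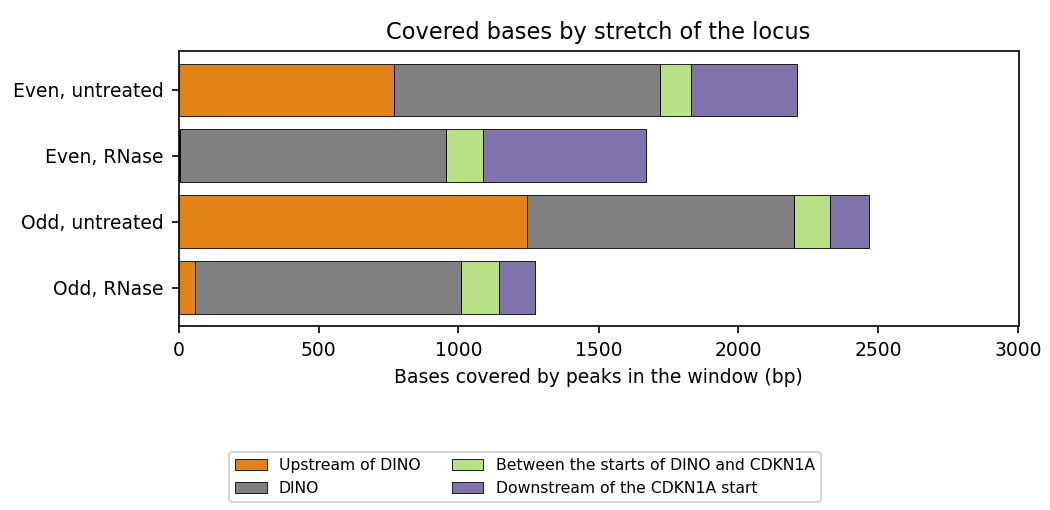
Bases of the 20 kb window covered by peaks (x axis, bp) in each list, divided into the stretch upstream of DINO, DINO, the stretch between the starts of DINO and CDKN1A, and the part downstream of the CDKN1A start. The upstream stretch is 768 and 1246 bp without RNase and 4 and 59 bp with RNase. DINO, as placed from RefSeq, is 951 bp in each list.

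Downstream of the CDKN1A start, no peak had a fold above 13.2, and the peaks found both with and without RNase were those of the even set. A peak just behind the start had its summit 184 bp downstream in the untreated (fold 13.2) and 185 bp downstream in the RNase-treated even list (fold 12.9). The untreated odd list had a peak from 174 to 312 bp downstream (fold 5.88) that overlapped it. That odd peak had no counterpart in the RNase-treated odd list, where the dominant peak 193 bp away was the nearest. Its fold was near the median of 6.06 of untreated odd peaks without a counterpart.

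Further into the window, a peak beginning 4306 bp downstream was found by the even set in both RNase states (36650765 to 36650918, fold 8.25, and 36650799 to 36650930, fold 6.74) and by the odd set in neither. The remaining 3 peaks were found only after RNase, each in a single list. They were even peaks at 36655408 to 36655539 (fold 6.16) and 36659855 to 36659991 (fold 7.79) and an odd peak at 36657603 to 36657730 (fold 7.71). Peaks found only after RNase were frequent over the genome, at 26.5% of RNase-treated even and 44.8% of RNase-treated odd peaks. No peak further than 312 bp downstream of the CDKN1A start was shared by both probe sets.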

How the data were processed

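Bowtie, MACS2 and the build hg19 are named in the submitters' processing notes. Versions, threshold and control library are not given in those notes or the labels. The peak names carry 1 library each, so peaks were called per library. The deposited lists have no header and were read as narrowPeak: the authors' fold enrichment (a linear ratio), the −log10 of the p-value and of the q-value, all at the summit, and a deposited score of 10 times the −log10 q-value less decimals. Starts were made 1-based. Peaks overlapped when they shared 1 bp. Genome-wide values used chromosomes 1 to 22 and X and windows of 20 kb. Overlap counting was tested on simulated lists. Python 3.11.15, numpy 2.4.6, pandas 2.3.3 and matplotlib 3.10.9 were used.

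The rule names CDKN1A and DINOL and every peak in the window. The locus, the rule and the comparisons were chosen with earlier results of these data known. No hg19 sequence or annotation was used, and the gene table of GRCh38.p14 served for names and the length of DINO. The cell line could not be checked against markers, since no expression was measured. Alternatives were a −log10 q-value or fold of at least 10, reciprocal 50% overlap, no peak within 500 bp, 100 bp around the p53 positions, and shifted windows.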

Additional observations from a re-analysis of the deposited data

How the results depend on the processing

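No paired analysis was possible because each condition had 1 library; for the same reason no library was left out in turn. Of 43 values recomputed under alternatives, 35 stayed within 1.5 times of the reported value and 8 moved further. With a fold of at least 10, the bases of both untreated lists only fell to 344 bp, which is the extension of the dominant peak without the flank, and the peaks at the locus numbered 2 for even probes with RNase and 1 in each odd list. Keeping peaks at −log10 q-values from 10 upward, 2 untreated odd and 1 RNase-treated odd peak were left, 1 untreated odd peak had no RNase-treated counterpart, and the untreated odd list covered 1 of the 2 nominal p53 positions, that at 1.4 kb; the bases of both untreated lists only came to 612 bp. The same threshold in the untreated lists only, added after the data were seen, also gave 612 bp. Within 100 bp of the p53 positions, both untreated lists had 2 and both RNase-treated lists 0. Windows shifted along by 10 kb left the locus at rank 1. Placing DINO 50 bp nearer or farther, also added after the data were seen, left it covered in full, except for 905 bp with even probes and RNase when farther. Interval ends depend on depth and on the threshold of the peak caller, and neither is known.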

Other observations

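Beyond the window, on the lower side, a peak about 15.4 kb upstream of the CDKN1A start was the nearest in the untreated even (36630921 to 36631113, fold 15.1), untreated odd (36630952 to 36631072, fold 7.03) and RNase-treated odd lists (36630944 to 36631071, fold 7.08). The RNase-treated even list had a nearer peak, at 36636753 to 36636905 (fold 8.60). On the upper side, the nearest peak was shared within each probe set: it began 34.9 kb downstream in both even lists (folds 28.1 without and 11.1 with RNase), and 27.8 kb (untreated, fold 13.4) and 27.6 kb (RNase-treated, fold 19.8) downstream in the odd lists.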
